A study of Mus musculus with 10 samples.

Results

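The genes described here encode the proteins of the mitochondrial ribosome, the machine that translates the few messages of mitochondrial DNA. All of its proteins are encoded in the nucleus and imported, whereas its RNAs come from mitochondrial DNA. It has a large subunit, which joins amino acids, and a small subunit, which decodes the message, and its products are core parts of the respiratory chain and of ATP synthase, on which neurons depend for energy. Members were all genes of the mRNA tables named Mrpl or Mrps with a number and at most 1 letter. The rule found 77 of 40904 gene symbols, 48 named Mrpl (large subunit) and 29 named Mrps (small subunit), each with a single row.

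Both groups were primary cortical neuron cultures from ICR mouse embryos at embryonic day 14, kept for 11 days in vitro. The control received AAV-Control, an adeno-associated virus, and the other group received AAV-Gata1, the same kind of vector carrying Gata1, a transcription factor of red cell and platelet precursors. The sources used here do not give the promoter of the vector or the share of cells it reached. Each condition had a single mRNA library (n = 1), which leaves every difference described below without replicates and without a test. Of the 10 samples of the series, the chromatin and small RNA samples were not used here.

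Levels are FPKM, fragments per kilobase of transcript scaled to the size of the library, so levels of different genes can be compared per length. Where a pair of levels is given, the control library comes first and the Gata1 library second. The sums over all genes were 476398 and 476848 FPKM, and the depth in fragments is unknown. Gata1 was listed at 0 in the control library and at 2.07 FPKM in the Gata1 library, which goes with the labels. All 10 neuron markers with a row were above 0, among them Map2 at 239.7 and 236 FPKM and Rbfox3 at 19.0 and 17.5 FPKM. Astrocyte markers were high as well (Gfap at 887 and 897 FPKM), while the 5 endothelial markers summed to 2.83 and 2.75 FPKM. Most of that sum came from Kdr (2.44 and 2.20 FPKM), and Cldn5 and Cdh5 were each listed at 0 in 1 library.

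Mitochondrial ribosomal protein mRNAs were well expressed and spread over a wide range. The median member stood at 32.2 and 32.6 FPKM. By mean level 70 of the 77 lay above the median of the 13740 genes compared (12.95 FPKM), and 43 lay above its 75th percentile. Together they made up 0.568% and 0.579% of all FPKM. The highest member exceeded the lowest 18.1-fold in the control library and 22.4-fold in the Gata1 library.

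The top of the order held genes of both subunits. Mrps6, whose product lines the platform of the small subunit, was highest, at 130.6 and 135 FPKM. It was followed by Mrpl52 (110.4 and 117 FPKM) and Mrpl33 (106 and 102 FPKM), both of the large subunit. Mrps21 came next, at 87.9 and 86.2 FPKM. These 4 genes stood above all other members, in the same order, in both libraries. Below them came Mrpl20 (64.3 and 71.2 FPKM), Mrpl28 (64.2 and 66.9 FPKM), Mrps16 (59.6 and 60.9 FPKM) and Mrpl42 (61.8 and 57.7 FPKM), which lie close enough for their order to differ between the libraries.

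At the bottom stood 5 members with a mean under 10 FPKM, all of them Mrpl genes. Mrpl19 was read at 7.22 and 6.27 FPKM. Mrpl57 stood at 7.82 and 6.05 FPKM, Mrpl1 at 8.11 and 7.69 FPKM, Mrpl35 at 8.48 and 9.22 FPKM, and Mrpl47 at 7.32 and 10.9 FPKM. The lowest Mrps genes were Mrps27, at 10.7 and 10.8 FPKM, and Mrps31, at 11.7 and 12.5 FPKM, and just above these came Mrpl11, at 13.2 and 13.04 FPKM. Of these low genes, Mrpl19, Mrpl1, Mrpl35, Mrpl47 and Mrpl11 were listed with a bacterial counterpart, and Mrpl57, Mrps27 and Mrps31 without one.

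**Figure D1:**
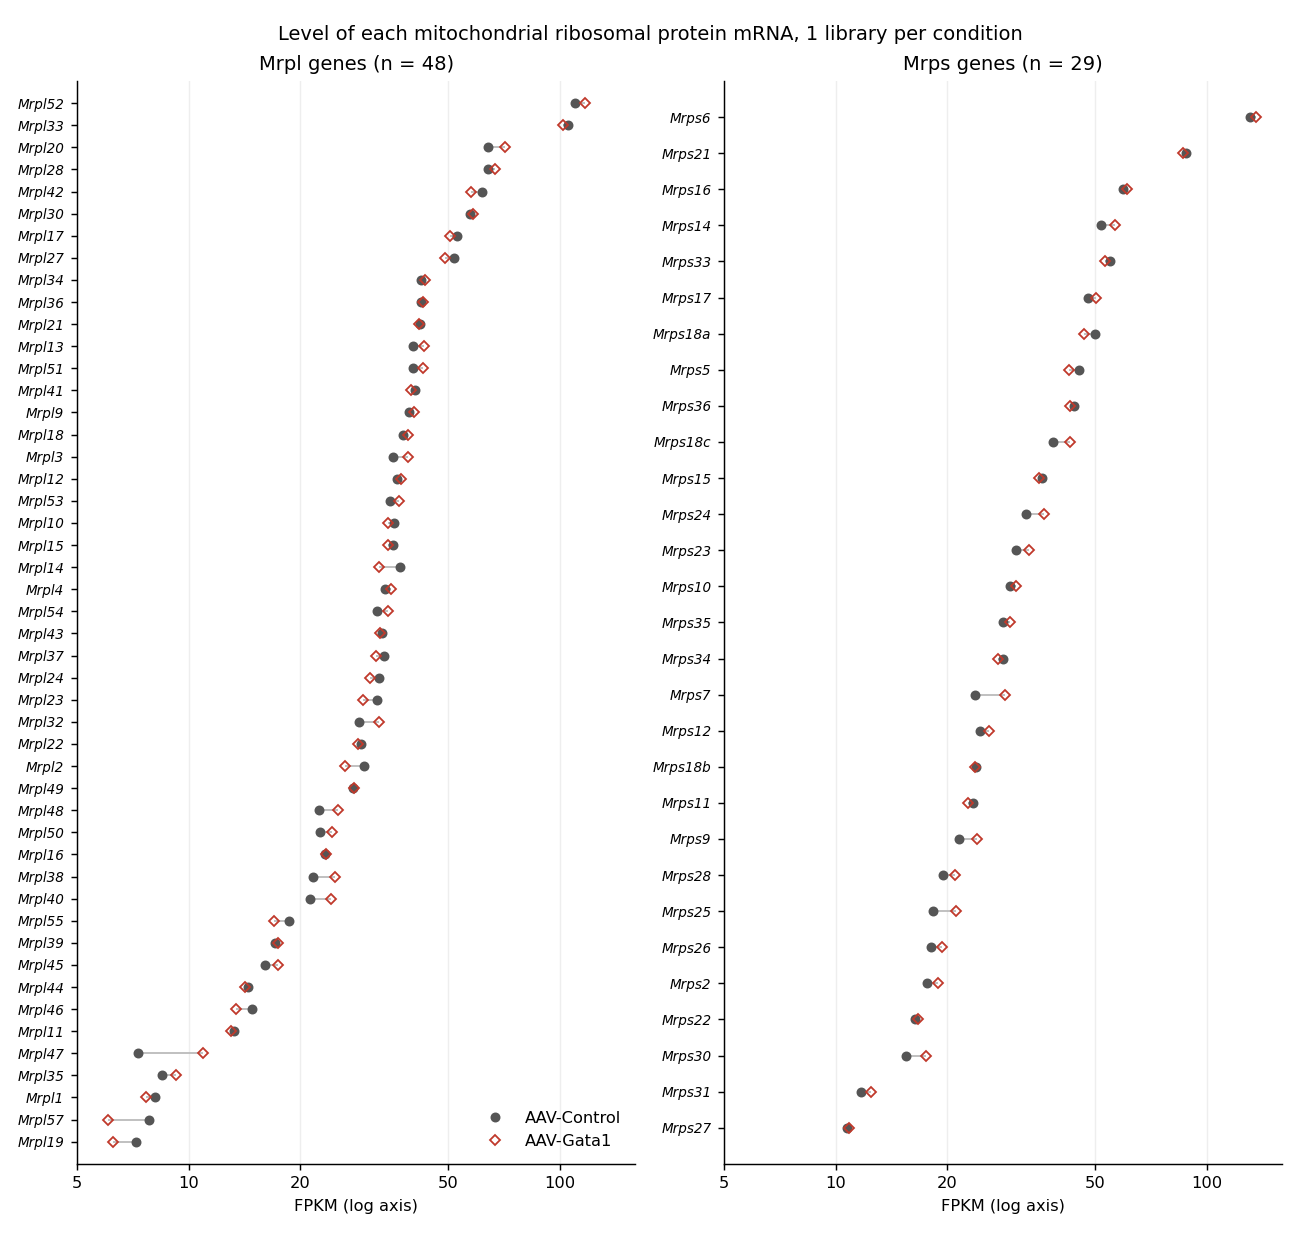
FPKM (log axis) of each Mrpl gene (left, n = 48) and each Mrps gene (right, n = 29), sorted by mean level, with 1 library per condition (filled circles AAV-Control, open diamonds AAV-Gata1). Levels run from 6.05 to 135 FPKM, most pairs of points nearly coincide, and the widest gaps are those of Mrpl47 and Mrpl57, both near the bottom.

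The order of levels was nearly the same in both cultures. Across the 77 genes Pearson's r of log2(FPKM + 1) was 0.990 and Spearman's rho of FPKM was 0.988, a description across genes of 1 pair of libraries, in which gene length and base composition are shared. The rank of 66 members moved by 5 places or fewer, and the largest move was 12 places, that of Mrpl14 (37.0 FPKM in the control, 32.6 FPKM in the Gata1 library).

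Differences between the libraries were small for nearly all members, and somewhat more of them were higher than lower in the Gata1 library. The value compared is log2((Gata1 + 1)/(control + 1)) of the FPKM, which understates differences of low genes. All 77 members passed the minimum mean of 1 FPKM. Of these 46 (59.7%) were higher and 31 were lower, against 45.3% higher and 54.7% lower among the 13740 genes compared. Their median log2 ratio was 0.034, beside −0.013 over all genes compared. Within 1.1-fold lay 61 of 77 members (79.2%), against a background of 75.6% over all genes and 81.8% over the 8893 genes in the members' own range of levels. Markers of microglia were higher in the same library (11 of 12, summed level 319.9 and 379 FPKM, none at 0). Of the 12, P2ry12 (0.18 and 0.12 FPKM) and Tmem119 (0.074 and 0.15 FPKM) were under 1 FPKM. The other 10 were all higher. Neuron markers were lower (10 of 10, summed level 807 and 772 FPKM, none at 0). Summed levels were also lower for pericyte and fibroblast markers (3 of 6 lower, 133 and 113 FPKM, with Acta2 at 76.4 and 60.7 FPKM). The other 3, Rgs5, Col1a1 and Col1a2, were higher but had means under 1 FPKM. Oligodendrocyte lineage markers summed lower as well (6 of 9 lower, 234 and 222 FPKM). Mog, 1 of the 3 that were higher, was under 1 FPKM. Neither list had a marker at 0. Astrocyte markers summed to 2409 and 2402 FPKM (5 of 8 lower). The part of these markers' cells in the members' values was not tested, and in bulk RNA fewer cells of a type cannot be told apart from less of an RNA per cell.

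Large differences were rare. At least 1.2-fold apart on this scale were 2 of 77 members (2.60%), 1 higher and 1 lower, against 7.27% of all genes compared (3.29% higher and 3.98% lower), 4.96% of 11855 protein-coding genes and 3.6% of the genes in the same range of levels. The members' share is near that of genes of like level. No member was 2-fold apart. The background shares were 0.517% of all genes, 0.059% of protein-coding genes and 0.36% of genes in the same range of levels.

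Mrpl47 was the higher one. It stood at 7.32 and 10.9 FPKM, 49.1% more, a log2 ratio of 0.52. Its product sits at the mouth of the tunnel through which the new chain leaves the ribosome. Mrpl57 was the lower one, at 7.82 and 6.05 FPKM, a log2 ratio of −0.32. It encodes a short protein particular to the mitochondrial large subunit. Both belong to the 5 low members, whose median absolute log2 ratio was 0.18, beside 0.074 for the other 72.

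Mrps7 came closest to the 1.2-fold limit from inside. It stood at 23.7 and 28.6 FPKM, a log2 ratio just under the limit (both 0.26), and passed it when the ratios were centred on the median gene, scaled by the upper quartile or given a pseudocount of 0.1 FPKM. Mrps7 encodes a protein of the small subunit's head that holds the ribosomal RNA there. In RefSeq the span of its gene shares bases with that of Gga3, which was also higher (10.8 and 12.9 FPKM, log2 ratio 0.24). It also shares bases with that of Mif4gd, which was nearly level (18.9 and 19.1 FPKM). How many bases are shared was not measured. The sources used here do not say whether fragments were assigned by strand. Without strand, fragments from the shared bases cannot be told apart.

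**Figure D2:**
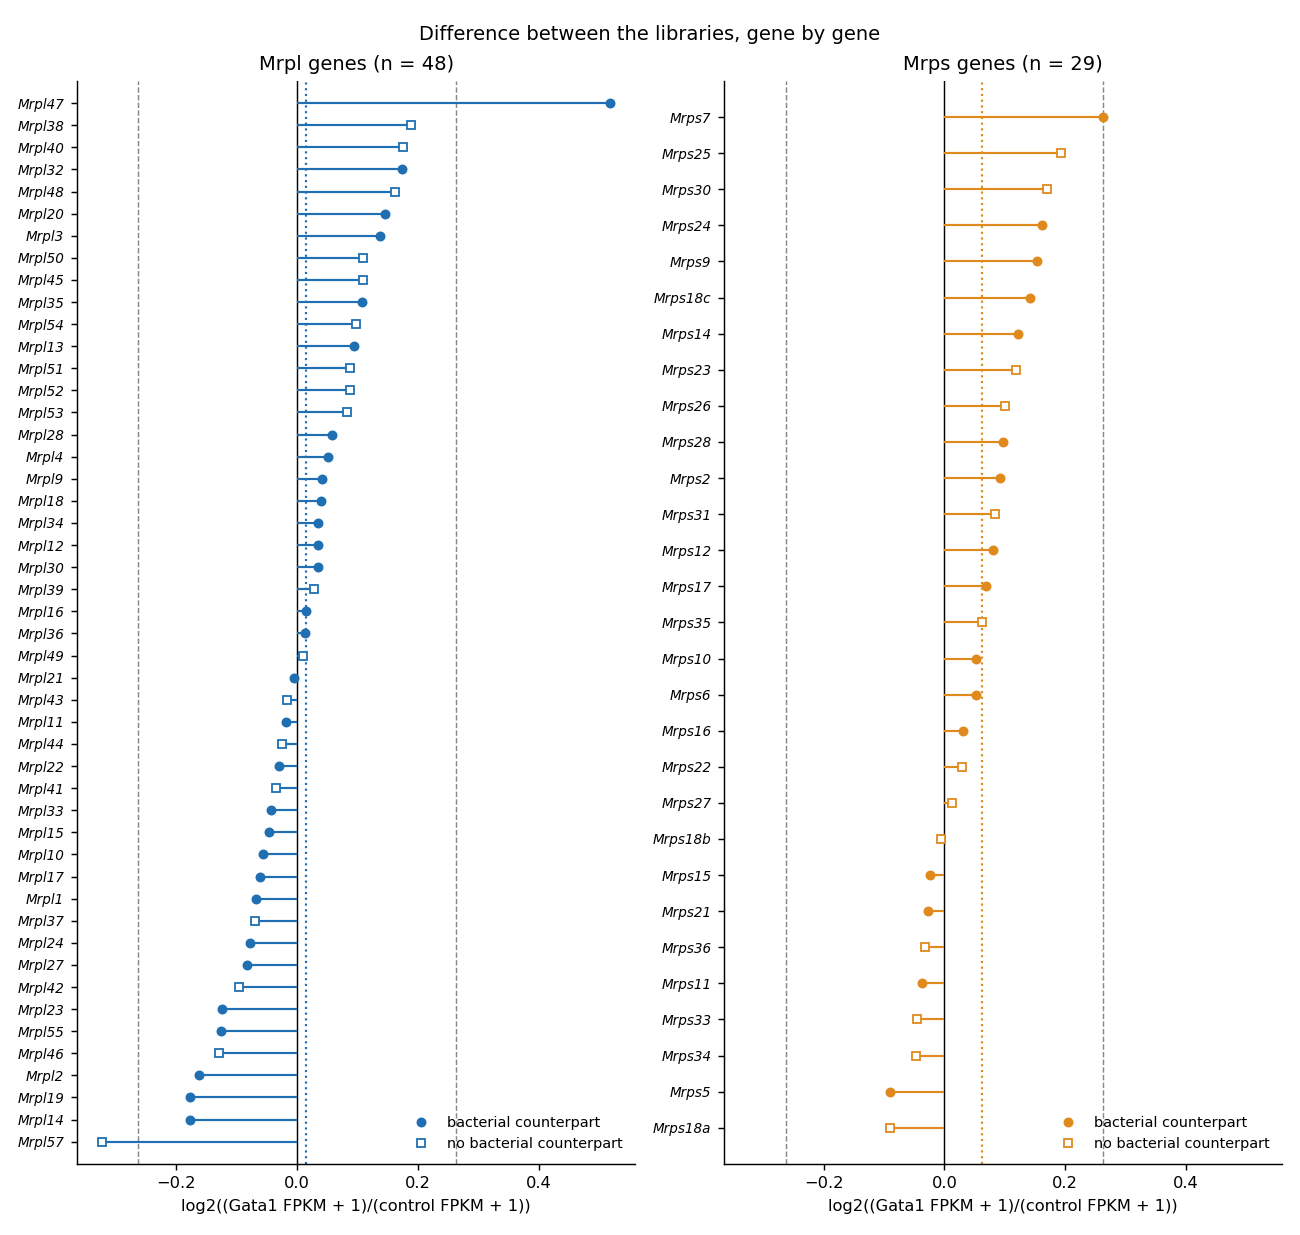
log2 ratio of the Gata1 over the control library for each Mrpl gene (left, n = 48) and each Mrps gene (right, n = 29). Filled circles mark proteins listed with a counterpart in bacteria and open squares those listed without one. Dashed lines mark 1.2-fold and dotted lines the group medians (0.014 and 0.062). Only Mrpl47 and Mrpl57 lie past the dashed lines.

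Large subunit genes lay to either side of 0. Of 48 Mrpl genes 26 (54.2%) were higher and 22 lower in the Gata1 library, against 45.3% higher over all genes, with a median log2 ratio of 0.014. The median level was 33.4 and 32.8 FPKM.

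Genes of the stalk, the flexible arm that recruits translation factors, stayed within a narrow band. Mrpl12, the protein that forms the arm itself, stood at 36.5 and 37.4 FPKM (control and Gata1), and Mrpl10, which anchors it, at 35.9 and 34.5 FPKM. Mrpl11 at the base was at 13.2 and 13.04 FPKM. The mitochondria-specific neighbours Mrpl53 (34.8 and 36.9 FPKM) and Mrpl54 (32.1 and 34.4 FPKM) were both slightly higher. Of the 5 genes 3 were higher and 2 lower, and Mrpl11 was read well below the other 4 in both libraries.

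Around the peptide exit site the picture was mixed. Besides Mrpl47, which was higher, only Mrpl45 was (16.04 and 17.4 FPKM), whose product helps to hold the ribosome at the inner membrane. The other 4 were lower by small amounts. Mrpl23 stood at 32.2 and 29.5 FPKM, Mrpl24 at 32.6 and 30.9 FPKM, Mrpl17 at 52.8 and 50.5 FPKM, and Mrpl22 at 29.2 and 28.6 FPKM. The median of these 6 genes was −0.046, against 0.52 for Mrpl47 alone.

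In the central protuberance, the crown of the large subunit that faces the transfer RNAs, 3 mitochondria-specific genes were higher by like amounts. Mrpl38 stood at 21.6 and 24.7 FPKM, Mrpl40 at 21.3 and 24.1 FPKM, and Mrpl48 at 22.45 and 25.3 FPKM, log2 ratios of 0.19, 0.17 and 0.16. Mrpl46, of the same part, went the other way, at 14.8 and 13.4 FPKM. Mrpl18 (37.9 and 38.98 FPKM) and Mrpl27 (51.9 and 48.99 FPKM), which have bacterial counterparts, lay to either side of 0. The median of the 6 was 0.10.

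Among Mrpl genes outside these structural groups, the highest ratios were those of Mrpl32, at 28.9 and 32.7 FPKM (log2 ratio 0.17), whose maturation in mitochondria precedes assembly of the ribosome, and of Mrpl20 (0.15). Over all Mrpl genes the lowest after Mrpl57 were Mrpl14 (log2 ratio −0.18), Mrpl19 (−0.18) and Mrpl2, at 29.7 and 26.4 FPKM (−0.16), a protein close to the catalytic centre. Next came Mrpl46 of the protuberance, Mrpl55 (18.6 and 17.0 FPKM) and Mrpl23 of the exit site, each at −0.13, and then Mrpl42 at −0.096. None of these reached 1.2-fold.

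Small subunit genes leaned towards the Gata1 library. Of 29 Mrps genes 20 (69.0%) were higher and 9 lower, against 45.3% higher over all genes, at a median log2 ratio of 0.062. None was 1.2-fold apart, beside 7.27% of all genes and 3.6% of the genes in the members' range of levels. The median of the Mrpl genes minus that of the Mrps genes was −0.048, a gap that was not tested, beside a median absolute log2 ratio of 0.081 for single members. The median Mrps level was 28.3 and 29.4 FPKM, somewhat below that of the Mrpl genes in both.

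Among Mrps genes whose products are in the small subunit, the highest ratios after Mrps7 were those of Mrps25 (18.3 and 21.1 FPKM, log2 ratio 0.19) and Mrps24 (32.5 and 36.5 FPKM, 0.16). Mrps24 corresponds to the bacterial protein at the entry of the message channel. Mrps9, a protein of the head, stood at 21.4 and 23.98 FPKM (0.15). On the lower side no Mrps gene passed −0.1. Mrps5, at 45.2 and 42.5 FPKM (−0.089), Mrps34, at 28.3 and 27.4 FPKM (−0.046), and Mrps33, at 55.0 and 53.3 FPKM (−0.045), were the lowest among these genes. Mrps24, Mrps9, Mrps5, Mrps34 and Mrps33 were chosen after their values were seen.

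Symbols and structure do not fully match. The bacterial protein S18 has 3 mitochondrial relatives, of which Mrps18c takes its place in the small subunit and Mrps18b sits elsewhere in it, while Mrps18a lies in the large subunit. Mrps18c stood at 38.6 and 42.7 FPKM, Mrps18b at 23.9 and 23.8 FPKM, and Mrps18a at 49.9 and 46.8 FPKM, so the relatives went different ways. Mrps30, also a large subunit protein, stood at 15.5 and 17.5 FPKM (log2 ratio 0.17), and Mrps36, now known as a part of the oxoglutarate dehydrogenase complex, at 43.8 and 42.8 FPKM. Placed by structure, 27 of 50 large subunit genes and 19 of 26 small subunit genes were higher, against 45.3% of all genes. The gap between the medians was then −0.051.

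Genes were also split by whether the protein was listed with a counterpart in bacteria. Mrps18a and Mrps18b, though relatives of S18, were listed without one. In the large subunit, 15 of 30 genes with a bacterial counterpart were higher (median log2 ratio 0.0038), as were 12 of 20 without one (0.055). In the small subunit the counts were 12 of 16 (0.075) and 7 of 10 (0.045). Over all genes compared 45.3% were higher, and over genes in the members' range of levels 44.4% were. Median levels were higher for genes with a counterpart. In the large subunit their median was 35.7 and 34.8 FPKM, beside 25.1 and 26.6 FPKM for the others. In the small subunit it was 34.3 and 35.9 FPKM, beside 21.1 and 22.4 FPKM.

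**Figure D3:**
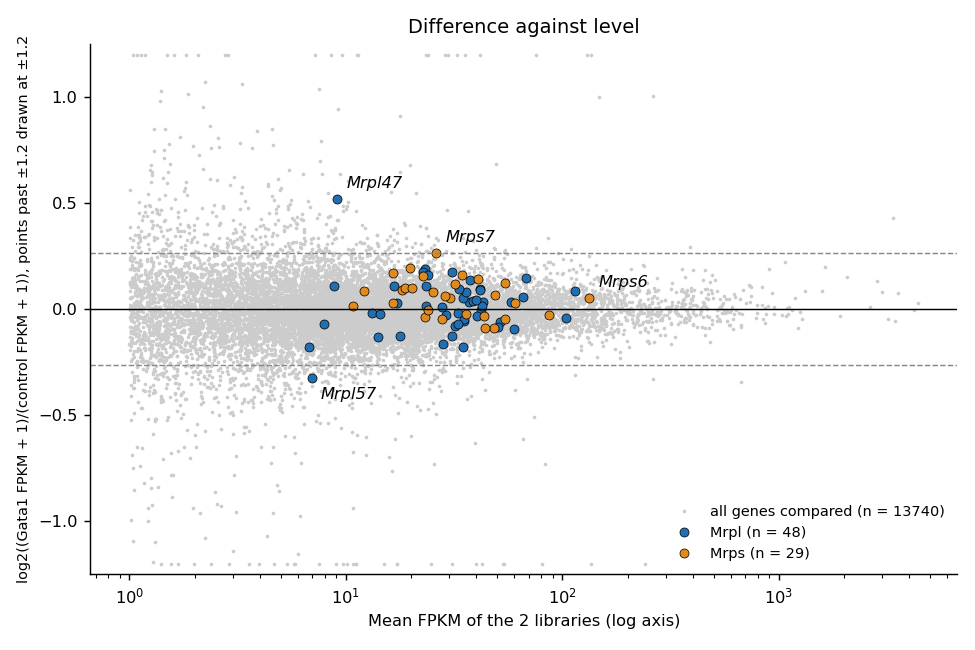
log2 ratio against mean FPKM (log axis) for all 13740 genes compared (grey; ratios past 1.2 either way are drawn at that value) with the Mrpl (blue) and Mrps (orange) genes on top; dashed lines mark 1.2-fold. The members lie inside the grey cloud, which widens towards low levels, where Mrpl47 and Mrpl57 are found.

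Some of these genes start next to a neighbour read the other way. RefSeq promoter windows (GRCm38.p6, 250 bases before to 50 after the start) were matched by symbol for 68 of the 77 members, in 74 windows. In 37.8% of these windows the start of another gene on the opposite strand lay at most 1000 bases upstream, against 17.5% of the windows of all genes compared and 11.3% of all 32851 windows. There were 22 such pairs with both genes compared, with starts 32 to 935 bases apart. In 10 of the 22 the log2 ratios had the same sign. Mrpl46 and Mrps11, of opposite subunits, form 1 pair between themselves, with starts 42 bases apart, and were both lower (Mrps11 at 23.4 and 22.8 FPKM).

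The stretches between paired starts are shown for Mrpl47, Mrps7 and Mrpl57, the members furthest apart between the libraries, for Mrpl32, and for the pair inside the particle. Each reads 5′ to 3′ towards the named member's start, and for Mrpl47 only the last 250 bases are given. Capitals mark matches, on either strand, to AANATGGC (the core bound by YY1) or to the palindromic motif of nuclear respiratory factor 1, the product of Nrf1. Only matches that lie wholly within the bases shown are marked. The promoter windows of Mrps7, Mrpl32 and Mrps11 also hold an AANATGGC match that does not.
Mrpl47 (partner Ndufb5, chr3:32736756-32737005, minus strand): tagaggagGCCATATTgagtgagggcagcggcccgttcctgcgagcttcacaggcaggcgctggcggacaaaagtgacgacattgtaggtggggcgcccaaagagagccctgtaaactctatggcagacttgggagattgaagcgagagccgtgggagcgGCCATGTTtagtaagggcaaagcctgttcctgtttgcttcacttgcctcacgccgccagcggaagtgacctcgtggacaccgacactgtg
Mrps7 (partner Gga3, chr11:115603917-115604139, plus strand): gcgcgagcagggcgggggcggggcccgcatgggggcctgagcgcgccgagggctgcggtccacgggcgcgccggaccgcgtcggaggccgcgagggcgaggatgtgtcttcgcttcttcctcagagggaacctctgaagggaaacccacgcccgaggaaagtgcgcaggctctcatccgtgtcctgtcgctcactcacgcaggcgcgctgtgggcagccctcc
Mrpl57 (partner Ska3, chr14:57826164-57826238, plus strand): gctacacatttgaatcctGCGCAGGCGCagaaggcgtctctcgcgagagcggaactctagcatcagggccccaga
Mrpl32 (partner Psma2, chr13:14613038-14613241, minus strand): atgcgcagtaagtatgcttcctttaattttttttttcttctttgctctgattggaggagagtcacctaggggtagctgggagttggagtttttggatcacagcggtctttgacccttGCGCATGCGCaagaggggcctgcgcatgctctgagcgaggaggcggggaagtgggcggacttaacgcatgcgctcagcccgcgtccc
Mrps11 (partner Mrpl46, chr7:78783090-78783130, plus strand): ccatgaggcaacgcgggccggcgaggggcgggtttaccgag

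The partners of these genes were read as follows. Ndufb5, a complex I subunit gene whose start lies 308 bases from that of Mrpl47, stood at 94.9 and 88.3 FPKM, a log2 ratio of −0.10 beside 0.52 for Mrpl47. Ska3, a gene of chromosome segregation 76 bases from Mrpl57, stood at 2.51 and 2.70 FPKM, and Psma2, a proteasome subunit gene 205 bases from Mrpl32, at 152 and 151 FPKM. Gga3, 224 bases from Mrps7, was higher, as given above. Distances are between the gene starts around which the promoter windows were drawn. Overlaps are of whole gene spans, so a pair can have both. Of the 22 partners 1 was 1.2-fold apart, against 7.27% of all genes compared and 4.96% of protein-coding genes. This partner was Ncapd2, a condensin gene beside Mrpl51 (20.2 and 14.9 FPKM). It was chosen after its values were seen, and Mrpl51 itself stood at 40.2 and 42.7 FPKM.

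Motifs of factors linked to mitochondrial genes were searched in the 300-base windows, on both strands. AANATGGC was found in 27.03% of the 74 windows, against 6.05% of all windows and 7.94% of those of all genes compared. The motif of nuclear respiratory factor 1 was in 17.6% (4.60% and 9.58%), and CCGGAAGT, the letters bound by ETS factors such as GABPA, in 16.2% (3.89% and 7.54%). The letters bound by GATA factors, AGATAA with T allowed in the first place and G in the last, were in 24.3%, against 29.8% of all windows and 17.9% of those of all genes compared. Of the 16 members with a GATA match 10 were higher in the Gata1 library (median log2 ratio 0.036), and of the 52 without one 30 were (0.030). Over all genes compared 45.3% were higher. The share among compared genes with a GATA match was not worked out. A match is a description of letters, not a bound site.

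The rest of the mitochondrial translation apparatus was divided. Of the 7 further genes listed with the mitoribosome under other symbols, Chchd1 (60.2 and 69.3 FPKM) and Aurkaip1 (60.2 and 67.5 FPKM), both of the small subunit, were higher. The others were Gadd45gip1 (4.16 and 3.56 FPKM), the membrane insertase gene Oxa1l (30.5 and 28.8 FPKM), Dap3 (51.7 and 50.5 FPKM), Ict1 (36.3 and 36.05 FPKM) and Ptcd3 (20.4 and 20.4 FPKM). The median, −0.011, turned to 0.0014 when ratios were centred on the median gene and to 0.0015 with upper-quartile scaling.

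Of 12 translation factor genes 7 were higher and 5 lower (median 0.017), against 45.3% higher over all genes compared. None was 1.2-fold apart, beside 7.27% of all genes. The furthest were the release factor gene Mtrf1l (4.07 and 4.74 FPKM), the recycling factor gene Mrrf (10.8 and 9.56 FPKM), Guf1 (17.6 and 15.8 FPKM) and the elongation factor gene Tsfm (11.9 and 10.7 FPKM). Assembly and RNA modification factors were higher in 10 of 25 cases (median −0.017), beside the same 45.3%. Only Ngrn, at 26.1 and 31.7 FPKM, was 1.2-fold apart, 1 of 25 beside 7.27% of all genes. Next in size were Trub2 (13.2 and 11.02 FPKM), the helicase gene Dhx30 (31.4 and 26.7 FPKM) and Fastkd2 (8.08 and 9.48 FPKM).

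Among 20 genes that charge mitochondrial transfer RNAs, 9 were higher and 11 lower (median −0.026), against 45.3% higher over all genes. By 1.2-fold, 1 was higher and 1 lower, beside 3.29% and 3.98% of all genes. The highest and lowest ratios of all the mitochondrial lists were found here. The leucyl-tRNA synthetase gene Lars2 stood at 17.0 and 25.3 FPKM (log2 ratio 0.55), and the prolyl-tRNA synthetase gene Pars2 at 6.00 and 4.32 FPKM (−0.39). Vars2 (6.61 and 7.65 FPKM) and Tars2 (10.3 and 9.35 FPKM) followed within 1.2-fold.

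For upkeep and transcription of mitochondrial DNA, 7 of 12 genes were higher (median 0.032, turning to −0.020 over the 9 genes left by a minimum mean of 5 FPKM). The polymerase subunits went opposite ways, Polg2 at 3.95 and 4.82 FPKM and Polg at 24.1 and 20.6 FPKM. The RNA polymerase gene Polrmt stood at 8.55 and 9.91 FPKM and the packaging factor gene Tfam at 22.6 and 19.8 FPKM. Of 8 nuclear regulators compared 5 were higher and 3 lower (median 0.019). For both lists the share higher over all genes was 45.3%. Pprc1, a coactivator of the PGC-1 family, was 1.2-fold lower, at 7.995 and 5.98 FPKM. It was 1 of 8, beside 3.98% of all genes. Yy1 (23.05 and 27.3 FPKM), Gabpa (21.1 and 23.3 FPKM) and Nrf1 (12.6 and 11.8 FPKM) lay within 1.2-fold.

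**Figure D4:**
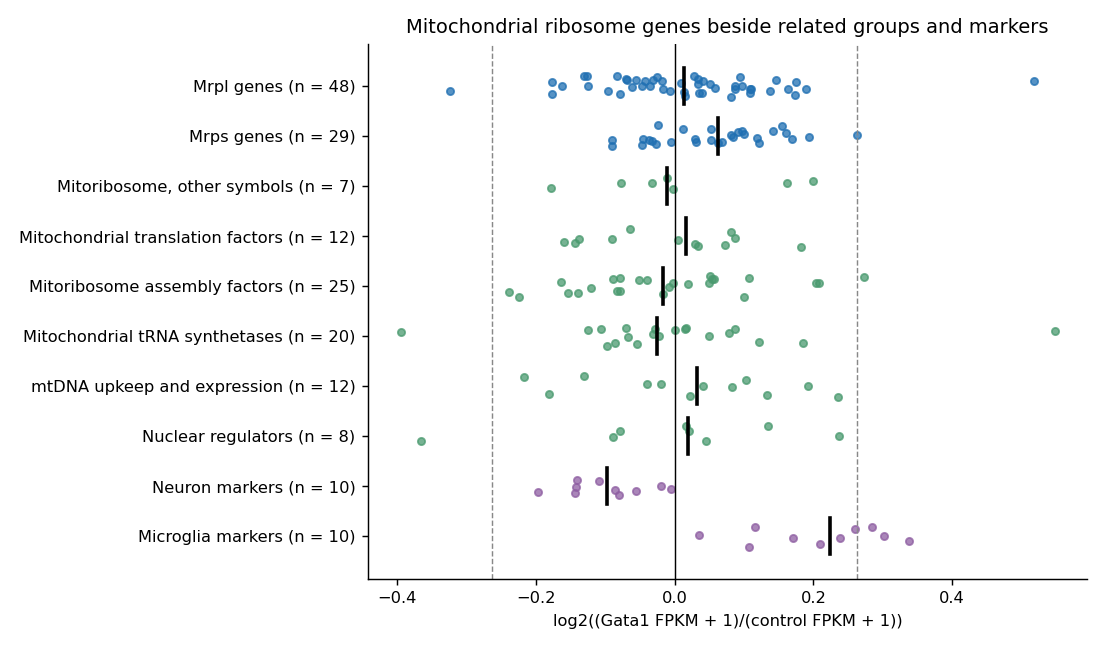
log2 ratio of the Gata1 over the control library for single genes (points) and group medians (black bars): Mrpl and Mrps genes (blue), the other mitochondrial translation groups (green) and markers of neurons and microglia (purple). Dashed lines mark 1.2-fold. The Mrps median is 0.062, the other mitochondrial groups lie between −0.026 and 0.032, and the marker groups lie at −0.098 and 0.22.

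Compared with the cytosolic ribosome and the respiratory chain, mitochondrial ribosomal protein genes were expressed at far lower levels. Median levels in the control library were 419 FPKM for 77 cytosolic ribosomal protein genes and 149 FPKM for 77 respiratory chain and ATP synthase subunit genes, beside 32.2 FPKM here. In the Gata1 library the medians were 428, 141 and 32.6 FPKM. Median log2 ratios were 0.014, −0.0010 and 0.034 in the same order. Of 77 genes each, 49, 38 and 46 were higher, against 45.3% of all genes compared. These gaps were not tested.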

How the data were processed

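The deposited mRNA values are FPKM per gene, per the file headers, made by the authors. The submitters' processing notes name, without roles, Cuffdiff 2.1.1, Cufflinks 2.1.1 and TopHat2 2.1.1 and the builds mm9 and mm10. Annotation and strand setting are not given in the sources used here. Of 40993 rows, 6 without a symbol (0.0122% and 0.0113% of the FPKM) were left out, and the highest-mean row per symbol was kept. Low values (1274 genes detected at less than 0.1 FPKM in each library) held no common step: at most 43 shared a log2 ratio within 0.02, so no depth was recovered, and no interval could be given.

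Ratios used a pseudocount of 1 FPKM over genes whose mean reached 1 FPKM (pandas 2.3.3, numpy 2.4.6, Python 3.11.15), and the procedure was tested on simulated data. With 1 library per group no test was made; folds of 1.2 and 2 are rules of size, and 1.1 was chosen after the data were seen. Members, lists and naming rules were chosen with earlier results of these data known. Named were the 8 highest and 8 lowest members, the 8 largest ratios each way, the members of the structural groups, Mrps genes placed elsewhere, and up to 4 genes per other list by size of ratio, or all of a list of 8 or fewer. Neighbouring or overlapping genes, a few markers and the genes said to be so in the text were chosen after their values were seen. RefSeq names and promoter windows are from GRCm38.p6; positions are printed only for promoter stretches, in that build, and the build of the mRNA files is not stated.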

Additional observations from a re-analysis of the deposited data

How the results depend on the processing

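Centring on the median of all genes or scaling by the upper quartile moved the members' median log2 ratio from 0.034 to 0.046 and 0.047, and the number of higher members from 46 to 48, as Mrpl21 and Mrps18b changed side. The share of all genes higher moved as well, from 45.3% to 50% (by construction) and 49.7%. Upper-quartile scaling gave median levels of 33.3 and 32.9 FPKM (Mrpl, control and Gata1) and 28.2 and 29.6 FPKM (Mrps), and placing genes by structure gave 28.2 and 29.03 FPKM for the small subunit. Members 1.2-fold apart numbered 2 or 3, the third being Mrps7. A pseudocount of 0.1 FPKM, other minimum means, summed rows and the mean in place of the median changed no direction of the members' summary values. No paired analysis was possible because each condition had 1 mRNA library. Leaving out a library was likewise not possible. Depth is unknown, so counting error of the low members Mrpl47 and Mrpl57 cannot be stated.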

Other observations

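Pseudogenes of the family, which the naming rule leaves out, had rows of their own. Mrpl48-ps stood at 5.08 and 3.87 FPKM (control, then Gata1 library), while its parent gene Mrpl48 was higher in the Gata1 library (22.45 and 25.3 FPKM). Mrpl23-ps1 stood at 3.92 and 4.86 FPKM, and its parent Mrpl23 was lower in the Gata1 library (32.2 and 29.5 FPKM). In both cases copy and parent went opposite ways. The sources used here do not say how fragments that match both copies were assigned, so the values of Mrpl48 and Mrpl23 carry that uncertainty. Mrps36-ps1 and Mrps36-ps2 were listed at 0 in both libraries.

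By whole gene spans, 25 of the 77 members (32.5%) overlap another gene in RefSeq, against 48.2% of 11855 protein-coding genes compared. The median log2 ratio was −0.0054 for the 25 and 0.038 for the 52 that overlap none. Some of these pairs are given here, chosen after their values were seen. Mrpl48 overlaps Rab6a, which was read far above it (119.996 and 123 FPKM), and Mrpl18 overlaps Tcp1 (140.3 and 143 FPKM). Mrps25 overlaps Nr2c2 (15.98 and 15.7 FPKM) and Mrpl2 overlaps Klc4 (11.8 and 11.6 FPKM). Mrpl57 overlaps Ska3, Mrpl14 overlaps Tmem63b (42.9 and 44.2 FPKM), Mrpl19 overlaps Gcfc2 (2.65 and 3.12 FPKM) and Mrps6 overlaps Slc5a3 (6.66 and 7.09 FPKM), and Mrpl47 overlaps none.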
